A study of Mus musculus with 7 samples.

Results

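Complexes II to V of the respiratory chain were followed in mouse prostate through 49 nuclear genes: the succinate dehydrogenase genes Sdha, Sdhb, Sdhc and Sdhd, the cytochrome genes Cyc1 and Cycs, and every gene whose symbol starts with Uqcr, Cox4, Cox5, Cox6, Cox7, Cox8 or Atp5. All 49 had a probe on the array, out of 17016 named genes, and 45 passed the filter on dim and incomplete probes. The 60 probes of these genes are named by accession only, and their binding to transcripts of related pseudogenes was not tested. The tested samples were 3 prostate samples of ARR2PB-Cre;ROSA(N1IC) mice, called PB-NICD. In these mice a Cre driven by the ARR2PB prostate promoter opens a ROSA allele that encodes the Notch1 intracellular domain. PIN lesions (prostatic intraepithelial neoplasia) then form. The PB-NICD samples were set against 4 prostate samples of control mice that carry ROSA(N1IC) and are labelled wild type for the domain. All mice were of C57Bl/6 background, and the labels used here give no age. The labels number the samples but do not say that each is a separate animal, so the p-values measure the spread between these samples.

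Mitochondria make ATP by passing electrons from complexes I and II through ubiquinone, complex III and cytochrome c to oxygen at complex IV. The protons pumped on the way drive the rotor of complex V, the ATP synthase. Apart from complex II, each of these complexes joins subunits encoded in the nucleus with subunits encoded in mitochondrial DNA, and complexes III to V carry many small supernumerary subunits beside their catalytic cores. In the normal prostate the luminal cells export citrate, which would otherwise feed the respiratory chain through the citric acid cycle, and this makes the chain a subject of study in prostate disease. None of the 26 listed mitochondrially encoded genes was matched to a probe, so all values below are for nuclear genes.

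Each array carried prostate cDNA in the red channel and one universal mouse reference RNA in the green channel, with no dye swap, and every value is a log2 ratio of prostate over reference. Differences are given as PB-NICD minus control, from the mean ratios of the groups. A gene is said to have risen or fallen where limma gave a two-sided p under 0.05 after Benjamini-Hochberg adjustment over all 16939 items tested. The median sample signal was 88 to 107 on the PB-NICD arrays and 69 to 87.5 on the control arrays, over a median background of 53 to 55. The probes of the genes studied here were far brighter, with a median sample signal of 1663.5 to 2779.5 on the PB-NICD arrays and 999 to 2196 on the control arrays, and none was saturated. Notch1, read with outlier spots kept, stood at 2.47, 2.63 and 2.74 on PB-NICD arrays 1 to 3, against 0.05, 0.30, 0.84 and 0.67 on control arrays 1 to 4. In bulk tissue, fewer cells of a type and less RNA per cell cannot be told apart.

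After loess normalization 11 of the 45 tested genes of complexes II to V fell in PB-NICD prostate and 0 rose by limma's test, but with median centring in place of loess 0 fell and 8 rose. Over all items the background was 5.01% called lower and 3.57% called higher after loess, and 1.65% called lower and 25.5% called higher with median centring. The genes that fell were Sdhb and Sdhc of complex II, Uqcr11 and Uqcrq of complex III, Cox5a, Cox7a2 and Cox7b of complex IV, and Atp5g1, Atp5j2, Atp5o and Atp5pb of complex V. The median difference of the 45 genes was -0.39, against -0.02 over all items, and 38 of the 45 lay below 0, against 54.35% of all items. At an unadjusted p under 0.05, 27 genes were lower and 0 higher, against 12.7% and 8.99% of all items. Of the 32 genes measured on all 7 arrays, 18 (56.2%) had every PB-NICD array below every control array, against a background of 14.2%, and 0 had every PB-NICD array above, against 9.33%. The items tested include many dimmer ones. With only items well above background on all 7 arrays, 12 of 43 genes fell after loess, against 7.58% of such items.

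Median centring, which corrects each array by one constant and not by signal level, moved the median difference of all items to 0.27. The 45 genes then had a median of 0.30, which is 0.03 above that of all items, and 19 of the 45 lay under it. Of the 11 genes that fell after loess, 9 still lay under the median of all items, among them Uqcr11 at -0.62, Uqcrq at -0.50 and Atp5g1 at -0.39 relative to it, and 0 of the 11 passed the threshold. The 8 genes called higher in that setting were Atp5a1, Atp5c1, Atp5h, Atp5j, Cox7a1, Uqcr10, Uqcrc1 and Uqcrh, and none of these fell after loess. These 8 of 45 are a smaller share than the 25.5% of all items called higher in the same setting. Sample signals were higher on the PB-NICD arrays, as given above, and their part in this was not tested. The other scalings were scaling between arrays, the sample channel alone, the software's processed signals and the authors' deposited value table. They kept the median of the 45 genes below 0, between -0.48 and -0.25. In that order 13, 1, 2 and 20 of the 45 genes fell, against 6.64%, 2.43%, 3.74% and 11.5% of all items called lower. The shares of the sample channel alone and of the processed signals were thus near those of all items.

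**Figure D1:**
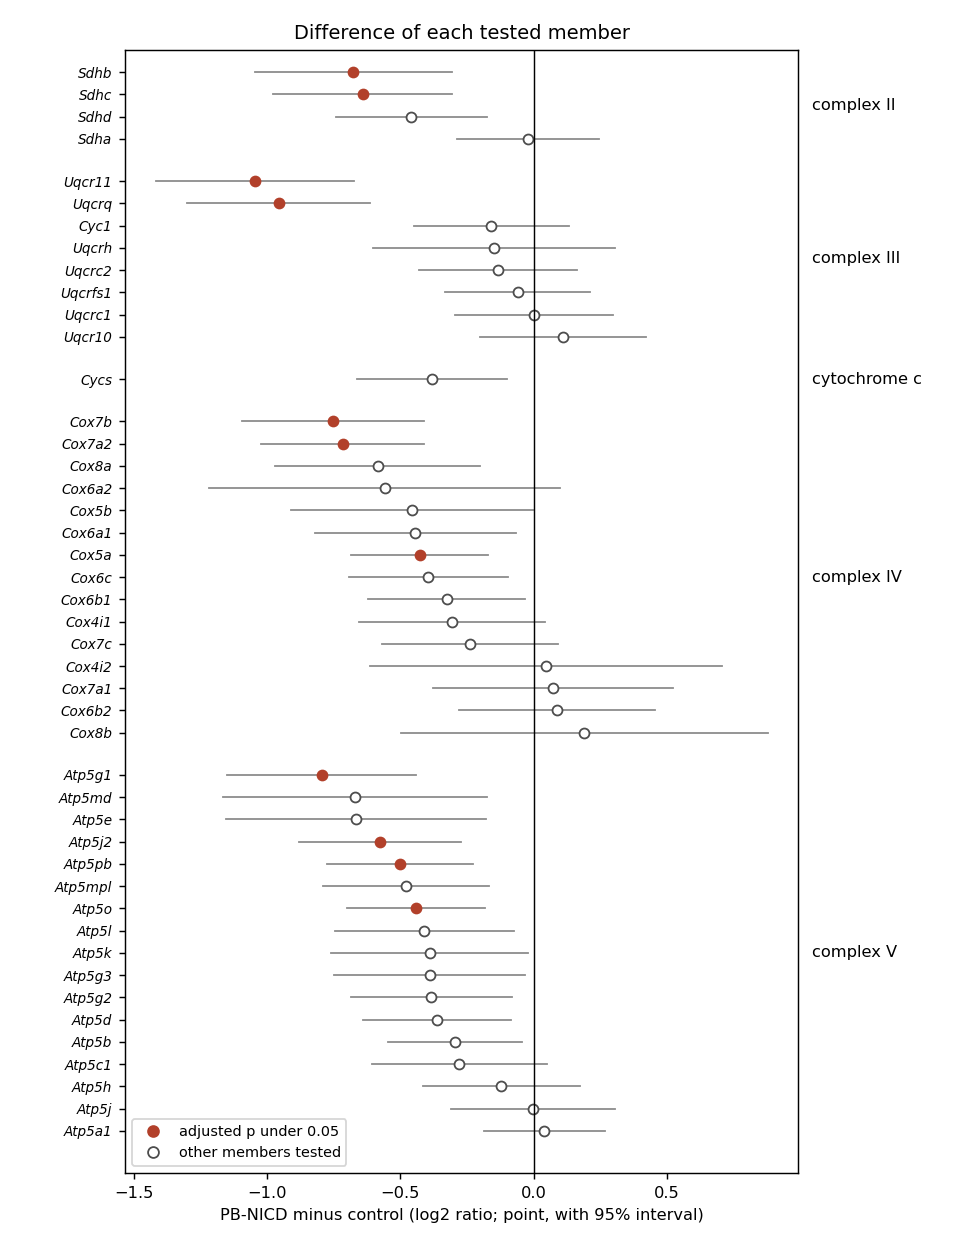
Difference of each of the 45 tested genes (x axis, PB-NICD minus control, log2 ratio after loess; bars are 95% intervals of the limma fit), grouped by complex, with filled points for the 11 genes at an adjusted p under 0.05. All 11 lie below 0, between -1.05 for Uqcr11 and -0.43 for Cox5a, and 6 of them lie above 0 with median centring in place of loess.

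Complex II oxidises succinate to fumarate and hands the electrons to ubiquinone, and has no mitochondrially encoded subunit. After loess 2 of its 4 genes fell, against 5.01% of all items. The median difference was -0.55, which became 0.16 with median centring, or -0.11 relative to all items. Sdhb, the iron-sulfur subunit, had log2 ratios of 0.71, 0.88 and 0.90 in PB-NICD prostates, against 1.82, 1.52 and 1.19 in control prostates 1, 2 and 4, with the spot on control 3 left out as an outlier. The groups did not overlap, and Sdhb averaged 0.83 ± 0.11 in PB-NICD (SD, n = 3) and 1.51 ± 0.31 in control (SD, n = 3). The difference of -0.68 ± 0.16 (SE) had an adjusted p of 0.0355 in limma.

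Sdhc, a membrane anchor that helps to bind heme and ubiquinone, read 1.21, 0.65 and 1.25 in PB-NICD prostates, against 1.74, 1.73, 1.70 and 1.55 in control prostates. All PB-NICD values were lower than all control values, and PB-NICD 2 was the lowest. The difference was -0.64 ± 0.15 (SE, limma adjusted p = 0.0266). Sdhd, the other anchor, read 0.96, 1.10 and 0.90 in PB-NICD prostates, against 1.55, 1.18, 1.61 and 1.43 in control prostates. Its groups did not overlap either, but the difference of -0.46 ± 0.13 missed the threshold (limma adjusted p = 0.0526) and passed it with slide as a block (0.0307).

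Sdha, the flavoprotein that carries the succinate site, gave another picture. It read 0.96, 1.37 and 1.27 in PB-NICD prostates, against 1.15, 1.22, 1.28 and 1.25 in control prostates, and the PB-NICD values lay on both sides of the controls. The difference was -0.02 with a 95% interval of -0.29 to 0.25, and the second Sdha probe gave 0.06 ± 0.16. The 4 genes of this complex were thus measured with differences that ran between -0.68 and -0.02, and whether Sdha differs from the others was not tested.

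Promoter sequences are shown for Sdhb, Sdhd and Sdha of complex II and for Uqcr11, the gene with the largest difference. RefSeq promoter windows (GRCm38.p6) were matched for 37 of the 49 genes, 9 of them among the 11 that fell, and Sdhc and Uqcrq were not matched. In the 250 bases before each annotated start, 5 motifs were searched on both strands: GCGCANGCG (NRF1), CCGGAAG (ETS factors such as GABPA), AAGATGGC (YY1), TCAAGGTCA (estrogen-related receptors) and GTGGGAA (RBPJ, the DNA-binding partner of the Notch1 intracellular domain). None of the 5 motifs contains another. Matches are in capitals, and each sequence runs 5′ to 3′ towards the start.
Uqcr11 (chr10:80406822-80407071, minus strand): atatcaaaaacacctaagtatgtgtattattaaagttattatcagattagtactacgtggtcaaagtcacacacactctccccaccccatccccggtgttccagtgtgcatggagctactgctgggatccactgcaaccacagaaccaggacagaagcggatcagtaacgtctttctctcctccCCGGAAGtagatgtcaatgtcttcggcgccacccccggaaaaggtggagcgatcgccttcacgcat
Sdhb (chr4:140961021-140961270, plus strand): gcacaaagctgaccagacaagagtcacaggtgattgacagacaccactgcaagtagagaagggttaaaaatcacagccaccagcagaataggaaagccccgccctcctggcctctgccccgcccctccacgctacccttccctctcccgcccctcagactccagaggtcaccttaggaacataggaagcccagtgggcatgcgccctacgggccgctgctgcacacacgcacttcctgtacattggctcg
Sdhd (chr9:50603850-50604099, minus strand): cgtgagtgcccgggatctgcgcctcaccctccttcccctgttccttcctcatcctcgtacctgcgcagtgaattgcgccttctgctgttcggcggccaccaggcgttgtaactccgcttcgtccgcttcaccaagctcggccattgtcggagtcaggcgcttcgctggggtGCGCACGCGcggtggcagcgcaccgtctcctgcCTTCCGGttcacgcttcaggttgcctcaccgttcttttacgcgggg
Sdha (chr13:74350241-74350490, minus strand): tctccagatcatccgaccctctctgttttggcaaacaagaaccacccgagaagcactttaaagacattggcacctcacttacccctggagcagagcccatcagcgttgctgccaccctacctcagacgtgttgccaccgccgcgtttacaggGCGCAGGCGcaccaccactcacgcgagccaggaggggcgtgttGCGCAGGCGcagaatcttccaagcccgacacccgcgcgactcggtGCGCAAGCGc
The Sdha window held the NRF1 letters at 3 places and the Sdhd window held 1 NRF1 and 1 ETS match. The Uqcr11 window held 1 ETS match, and the Sdhb window held none of the 5 motifs. Over the 40 windows of the 37 genes, 22.5% held the NRF1 letters, against 5.16% of all 32851 windows, and the same share held the ETS letters, against 6.91% of all. The NRF1 letters stood in 0 of the 9 windows of genes that fell and in 9 of the 29 windows of tested genes that did not pass. For the ETS letters these counts were 1 of 9 and 8 of 29. For the RBPJ letters they were 0 of 9 and 2 of 29, and for YY1 and for the estrogen-related receptors 0 of 9 and 1 of 29 each. The RBPJ letters stood in 2 of the 40 windows (5%), those of Atp5k and Cox7c, against 5.42% of all windows. For YY1 the count was 1 of 40 (2.5%) against 1.56%, and for the estrogen-related receptors 1 of 40 against 0.387%. The genes that fell are those called after loess, and with median centring 0 genes fell. Whether any motif goes with the differences was not tested. A match is a run of letters, not a bound site.

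Complex III passes electrons from ubiquinol to cytochrome c. Its small subunits Uqcr11 and Uqcrq had the 2 largest differences among all 45 genes, while its catalytic and core subunits differed by -0.16 to 0.00 and did not pass. The median difference of the 8 tested genes was -0.14 after loess, with 2 fallen, and 0.51 with median centring, with 3 called higher. Over all items 5.01% were called lower after loess and 25.5% higher with median centring. Uqcr11, a very small membrane subunit, read 1.53, 1.06 and 1.63 in PB-NICD prostates, against 2.65, 2.48, 2.54 and 2.14 in control prostates. No PB-NICD value reached the lowest control. The difference of -1.05 ± 0.17 (SE), 2.07-fold lower in PB-NICD, had an adjusted p of 0.00368 in limma. Of the 35 genes that could be tested within slide 2, Uqcr11 alone passed in this direction (difference -0.996, limma adjusted p = 0.0435), against 3.65% of all items called lower there.

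Uqcrq, also known as the ubiquinone-binding protein QP-C, read 1.17, 1.12 and 1.28 in PB-NICD prostates, against 2.42, 2.14, 2.28 and 1.75 in control prostates. The PB-NICD values lay close together (SD 0.08, n = 3), and control 4 was the lowest control. The difference was -0.96 ± 0.15 (SE), 1.94-fold lower in PB-NICD (limma adjusted p = 0.00383). Uqcr11 and Uqcrq were below 0 in all 23 other settings tried, median centring included.

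The remaining genes of complex III did not pass. Cyc1, cytochrome c1, read 0.25, 0.19 and 0.16 in PB-NICD prostates, against 0.51, 0.19, 0.58 and 0.16 in control prostates, with a difference of -0.16 ± 0.13. Uqcrfs1, the Rieske iron-sulfur protein, differed by -0.06, the core protein Uqcrc1 by 0.00 and the core protein Uqcrc2 by -0.13 (values on 2 of the 3 PB-NICD arrays). Uqcr10, another small subunit, read 1.92, 1.79 and 2.18 in PB-NICD prostates, against 2.09, 1.87, 1.83 and 1.61 in control prostates. Its difference of 0.11 had a 95% interval of -0.20 to 0.42, so the supernumerary subunits of this complex ranged from -1.05 to 0.11.

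Uqcrh, the hinge protein that touches cytochrome c1, depended on the probe. The brighter probe had values on 2 control arrays only and read 2.28, 1.69 and 2.03 in PB-NICD prostates, against 2.31 and 1.98 in control prostates 2 and 4. The other probe was measured on all 7 arrays and read 2.00, 1.78 and 2.17 in PB-NICD prostates, against 2.71, 2.55, 2.45 and 2.36 in control prostates, with no overlap. Its difference was -0.54 ± 0.13 (limma, unadjusted p = 0.00217), against -0.15 ± 0.20 for the brighter probe. Uqcrb was not tested, because outlier spots left 1 PB-NICD value.

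Cycs, the somatic cytochrome c that carries electrons from complex III to complex IV, read 0.05, -0.20 and 0.27 in PB-NICD prostates, against 0.38, 0.50, 0.34 and 0.47 in control prostates. The groups did not overlap, but the difference of -0.38 ± 0.13 had an adjusted p of 0.102 in limma. A dimmer Cycs probe gave 0.09 ± 0.15, so the probes differed in sign.

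Complex IV, cytochrome c oxidase, reduces oxygen to water. Its catalytic core is encoded in mitochondrial DNA and was not measured, and 15 nuclear genes for the surrounding subunits were tested. After loess 3 of the 15 fell, against 5.01% of all items. The median difference was -0.39, and with median centring it was 0.29. All 10 widely expressed subunits lay between -0.75 and -0.24 after loess, while 4 of the 5 tissue isoforms lay above 0. With median centring the medians were 0.31 for the widely expressed subunits and 0.17 for the tissue isoforms, or 0.04 and -0.1 relative to all items. The probes of the 5 tissue isoforms were dim, with median sample signals from 84 for Cox8b to 176 for Cox7a1. Cox7b, a small transmembrane subunit, read 1.38, 1.49 and 1.99 in PB-NICD prostates, against 2.47, 2.48, 2.24 and 2.30 in control prostates. PB-NICD 3 stood above the other 2 PB-NICD samples but below every control. The difference was -0.75 ± 0.15 (SE, limma adjusted p = 0.013).

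Cox7a2, the widely expressed form of subunit 7a, read 1.00, 1.07 and 1.46 in PB-NICD prostates, against 1.99, 2.00, 1.88 and 1.70 in control prostates. Its difference of -0.72 ± 0.14 (limma adjusted p = 0.00965) was 1.64-fold lower in PB-NICD, with no overlap of the groups. Cox5a, a subunit on the matrix side of the enzyme, read 0.89, 0.89 and 0.98 in PB-NICD prostates, against 1.27, 1.54, 1.18 and 1.39 in control prostates. Its difference of -0.43 ± 0.12 was the smallest of the 11 and lay just inside the threshold (limma adjusted p = 0.0484).

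Cox8a, the widely expressed form of subunit 8, came next in order of p. It read 0.82, 0.63 and 0.63 in PB-NICD prostates, against 1.53, 1.03, 1.61 and 0.94 in control prostates, with no overlap, and its difference of -0.59 ± 0.17 had an adjusted p of 0.0677. Cox6c, the other gene among the 5 of lowest p, had 0.20 and 0.37 in PB-NICD prostates 1 and 2, against 0.61, 0.54, 0.79 and 0.77 in control prostates, and an adjusted p of 0.11. Cox4i1, Cox5b, Cox6a1, Cox6b1 and Cox7c differed by -0.46 to -0.24 and did not pass.

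**Figure D2:**
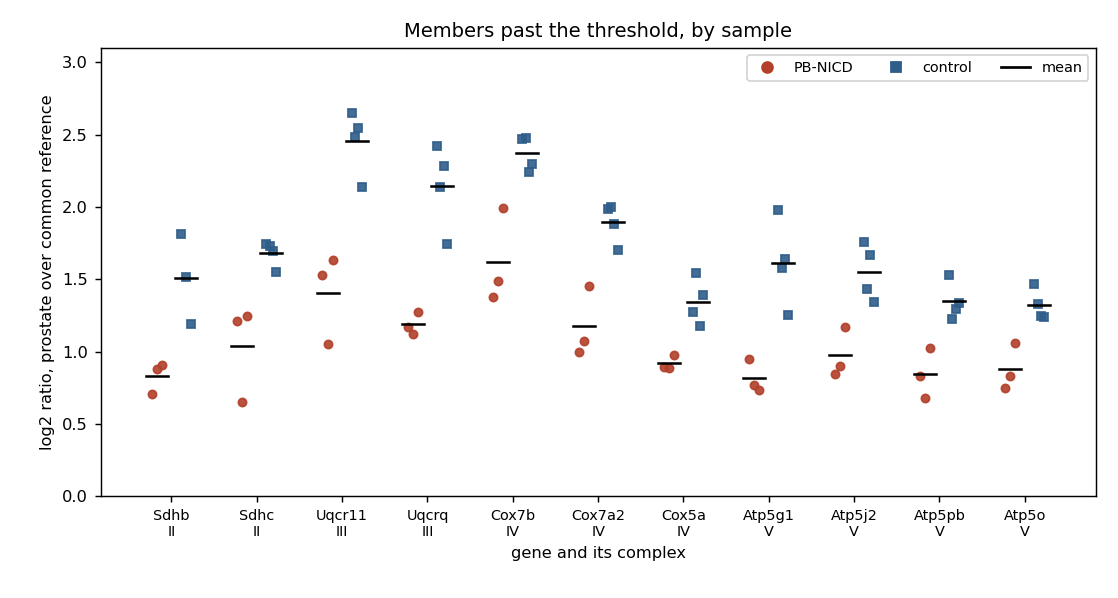
Log2 ratio of prostate over the common reference (y axis) in each sample for the 11 genes that fell after loess (x axis, with the complex below each name). PB-NICD samples are circles on the left of each pair, control samples are squares on the right, and bars are group means. No PB-NICD point reaches the lowest control point of the same gene, and with median centring the differences are -0.34 for Uqcr11, -0.22 for Uqcrq, -0.11 for Atp5g1, -0.03 for Cox7b and -0.01 for Cox7a2, while the other 6 lie above 0 and none of the 11 passes.

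Several subunits of complex IV exist as a widely expressed form and a form known from heart and skeletal muscle, lung or testis, and these forms were set side by side within each sample. Cox6a2, the muscle form of subunit 6a, read -1.24, -1.41 and -0.95 in PB-NICD prostates, against 0.33, -0.86, -1.01 and -1.03 in control prostates. Control 1 stood far above every other sample, and controls 3 and 4 lay within the range of the PB-NICD samples. The difference of -0.56 ± 0.30 had an adjusted p of 0.32. Its widely expressed counterpart Cox6a1 read 1.19, 1.31 and 1.14 in PB-NICD prostates, against 2.00, 1.50, 1.85 and 1.27 in control prostates, with a difference of -0.44 ± 0.17.

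Cox7a1, the muscle form of subunit 7a, read 0.02, -0.06 and -0.15 in PB-NICD prostates, against 0.45, -0.08, -0.37 and -0.53 in control prostates. The difference of 0.07 ± 0.20 contrasts in size with -0.72 for Cox7a2, but the difference between the forms was not tested. Cox8b, the muscle form of subunit 8, read 0.15, 0.66 and 0.68 in PB-NICD prostates, against 1.13, 0.52, -0.43 and 0.00 in control prostates. Over both slides it differed by 0.19 ± 0.31, and within slide 2 alone it was the 1 gene called higher (0.88, limma adjusted p = 0.0288), against 2.46% of all items.

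Cox4i2, a form of subunit 4 known from lung and from cells short of oxygen, read -0.16, 0.24 and 0.23 in PB-NICD prostates, against 1.03, -0.18, -0.22 and -0.40 in control prostates. Control 1 was again the highest sample, and the difference was 0.05 ± 0.30. Cox4i1, the usual form, read 1.73 and 1.80 in PB-NICD prostates 1 and 2, against 2.38, 1.91, 2.08 and 1.92 in control prostates (difference -0.31 ± 0.16). Cox6b2, a testis form, read 0.95, 0.27 and 0.78 in PB-NICD prostates, against 0.80, 0.58, 0.53 and 0.41 in control prostates, with a difference of 0.09 ± 0.17, while Cox6b1 differed by -0.33 ± 0.13 (limma adjusted p = 0.177).

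Markers of striated muscle were read beside these isoforms. Of 12 such markers all were on the array, 7 to 12 were detected on the PB-NICD arrays and 8 to 12 on the control arrays, and the mean log2 ratio of the 4 measured on all arrays was 1.15, 1.11 and 1.92 on the PB-NICD arrays, against 3.61, 2.02, 2.04 and 2.42 on the control arrays. All PB-NICD arrays lay below all control arrays in this mean, and control 1 had the highest, as it had for Cox6a2, Cox7a1, Cox8b and Cox4i2, and the part of muscle in these values was not tested. The testis forms Cox7b2 and Cox8c stayed at background on all arrays and were not tested. Cox7a2l, a factor that joins complexes III and IV, was not tested because outlier spots left 1 PB-NICD value.

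**Figure D3:**
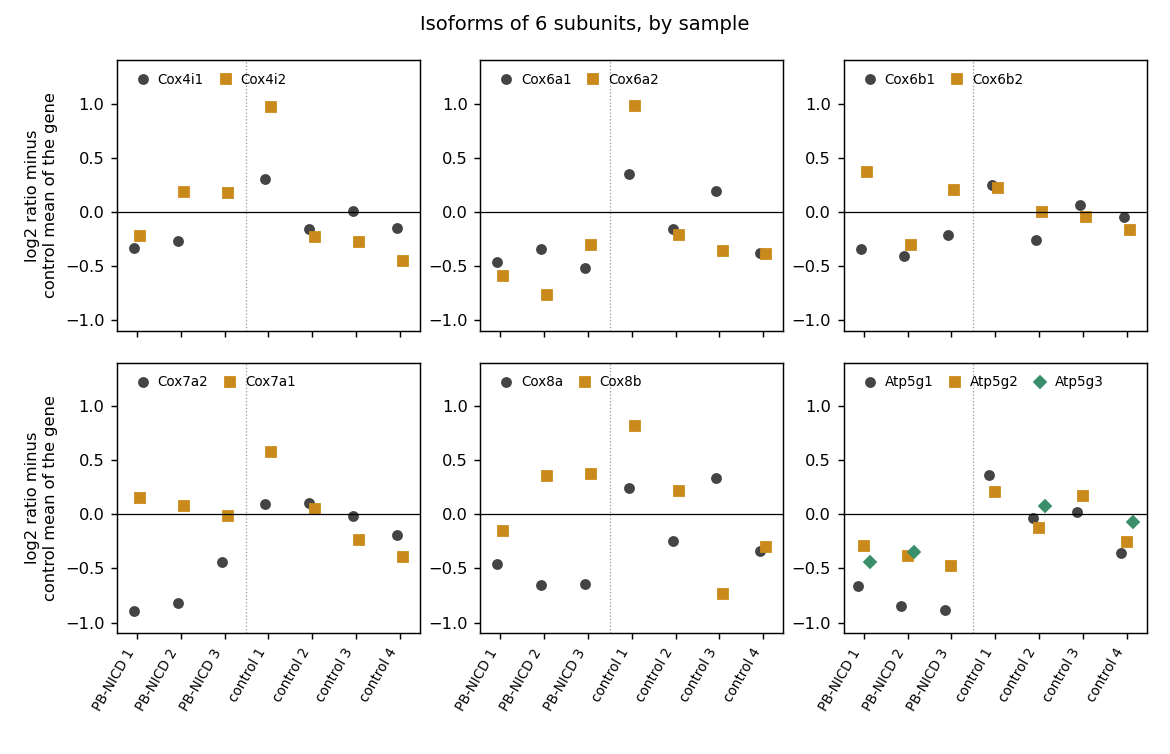
Log2 ratio after loess minus the control mean of the same gene (y axis) in each of the 7 samples (x axis, PB-NICD left of the dotted line) for the isoforms of 6 subunits. Control 1 is the highest sample for Cox4i2, Cox6a2, Cox7a1 and Cox8b, while Cox7a2 and Atp5g1 are lower in all 3 PB-NICD samples than in any control, with differences of -0.01 for Cox7a2 and -0.11 for Atp5g1 under median centring.

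Complex V makes ATP in its F1 head, which is driven by a ring of c subunits in the membrane. All 17 of its genes were tested. After loess 4 fell, against 5.01% of all items, and 16 of the 17 lay below 0, against 54.35%. The median difference was -0.39 and became 0.31 with median centring. Of the 11 genes of this complex measured on all arrays, 9 had every PB-NICD sample below every control, against 14.2% of all items so measured. Atp5g1, which encodes the c subunit of the membrane ring, read 0.95, 0.77 and 0.73 in PB-NICD prostates, against 1.98, 1.58, 1.64 and 1.25 in control prostates. The groups did not overlap, with an SD of 0.12 in PB-NICD (n = 3) and 0.30 in control (n = 4). The difference of -0.80 ± 0.16 (SE, limma adjusted p = 0.0118) was 1.74-fold lower in PB-NICD.

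The genes Atp5g2 and Atp5g3 encode the same mature c subunit with other import sequences. Atp5g2 read 0.81, 0.72 and 0.63 in PB-NICD prostates, against 1.32, 0.98, 1.28 and 0.85 in control prostates, a difference of -0.38 ± 0.14 that did not pass (limma adjusted p = 0.125), and its second probe gave 0.09 ± 0.23. Atp5g3 had 2 values in each group, 1.20 and 1.29 in PB-NICD prostates against 1.71 and 1.56 in control prostates, and a difference of -0.39 ± 0.15. After loess all 3 c subunit genes were below 0 on their brightest probe, with 1 past the threshold, and with median centring Atp5g2 (0.35) and Atp5g3 (0.41) were above 0.

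In the peripheral stalk, which holds the head still, Atp5pb (subunit b) and Atp5o (OSCP, the cap that joins stalk and head) fell. Atp5pb read 0.83, 0.68 and 1.03 in PB-NICD prostates, against 1.53, 1.23, 1.30 and 1.33 in control prostates (difference -0.50 ± 0.12, limma adjusted p = 0.032). Atp5o read 0.75, 0.83 and 1.06 in PB-NICD prostates, against 1.47, 1.33, 1.25 and 1.24 in control prostates (difference -0.44 ± 0.12, limma adjusted p = 0.0427). Neither overlapped between groups. The other stalk genes Atp5h (subunit d) and Atp5j (coupling factor 6) differed by -0.12 and 0.00, although the second Atp5h probe gave -0.43 ± 0.14.

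Atp5j2, the membrane subunit f, read 0.85, 0.90 and 1.17 in PB-NICD prostates, against 1.76, 1.44, 1.67 and 1.34 in control prostates, and fell by 0.58 on the log2 scale (limma adjusted p = 0.0276). The other 4 supernumerary genes of the membrane part, Atp5mpl, Atp5md, Atp5k and Atp5l, differed by -0.67 to -0.39 without passing. Atp5mpl was the nearest to the threshold (adjusted p = 0.0649), with 0.97, 0.86 and 1.10 in PB-NICD prostates against 1.76, 1.51, 1.31 and 1.25 in control prostates.

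In the F1 head, where ATP is formed, neither gene passed. Atp5a1, the alpha subunit, read 1.16, 1.27 and 1.07 in PB-NICD prostates, against 1.07, 1.15, 1.10 and 1.20 in control prostates, and its difference of 0.04 had a 95% interval of -0.19 to 0.27. A dimmer Atp5a1 probe gave -0.09 ± 0.18, so the probes differed in sign. Atp5b, the catalytic beta subunit, read 0.85, 1.03 and 0.90 in PB-NICD prostates, against 1.19, 1.22 and 1.25 in control prostates 2 to 4, with a difference of -0.29 ± 0.11 (limma adjusted p = 0.157). A dimmer Atp5b probe, measured on all 7 arrays, gave -0.39 ± 0.12 (limma, unadjusted p = 0.00909), with no overlap of the groups. The central stalk genes Atp5c1, Atp5d and Atp5e differed by -0.28, -0.36 and -0.67.

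The samples of a group were not alike. Taken over the tested genes with a value on an array, the median deviation from each gene's control mean was -0.36, -0.43 and -0.29 in PB-NICD samples 1 to 3, against 0.24, -0.01, -0.005 and -0.19 in control samples 1 to 4. Control 1 was the highest of the 7 samples for 21 of the 32 genes measured on all arrays, and control 4 was the lowest control for 20. Without control 1, 5 genes fell, against a background of 4%, and the median difference of the 45 genes was -0.30. Without PB-NICD 2, the lowest sample for 14 of the 32 genes, 3 of the 40 genes then tested fell, namely Cox7a2, Uqcr11 and Uqcrq, against 3.02%. Without PB-NICD 1, whose array held 9 of the 14 spots left out for a high local background, 5 of 39 fell, against 3.33%.

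PB-NICD 1 shared slide 1 with controls 1 and 2, and the other samples shared slide 2. With slide as a fixed block 15 genes fell, against a background of 7.35%, the additions being Atp5e, Atp5md, Atp5mpl and Sdhd. With slide as a random block 12 fell, against 5.94%. Of the 33 genes that passed the filter on dim and incomplete probes within both slides, 31 lay below 0 within slide 1 and 26 within slide 2, and the same 26 lay below 0 on both. Cox4i2 and Cox8b, both above 0 within slide 2, did not pass that filter within slide 1. The brightest passing probe was picked anew within each slide. A dimmer probe thus stood for Uqcrh on both slides (-0.64 and -0.43), for Atp5b on slide 1 (-0.33) and for Uqcrc1 on slide 2 (0.115). Fitted anew within each slide, the median difference was -0.43 on slide 1, where 1 PB-NICD array allows no call for the group, and -0.32 on slide 2. Over all items these medians were -0.05 and -0.04. On slide 2, 1 of 35 genes fell (Uqcr11) and 1 rose (Cox8b).

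**Figure D4:**
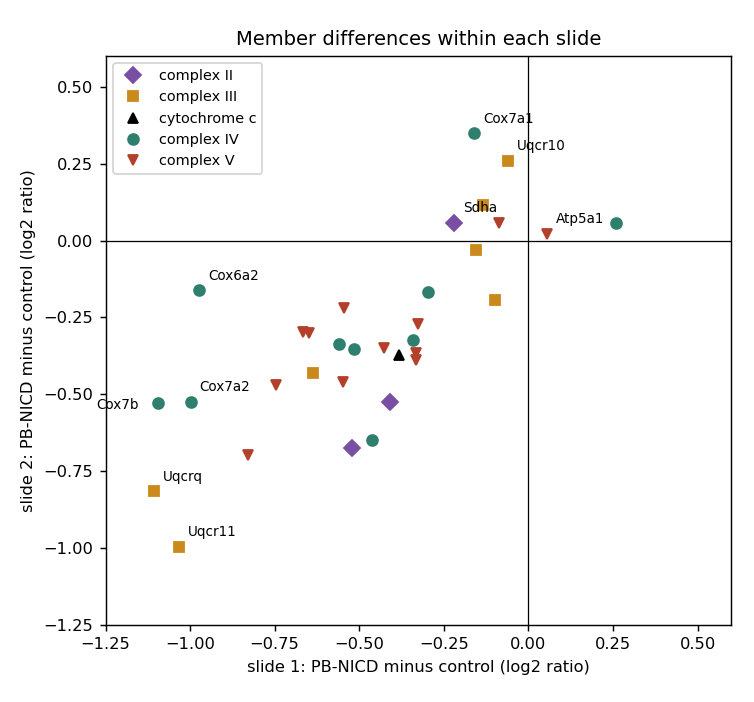
PB-NICD minus control (log2 ratio after loess) within slide 1 (x axis, 1 PB-NICD and 2 control arrays) and within slide 2 (y axis, 2 PB-NICD and 2 control arrays) for the 33 genes that passed the filter within both. Points in the lower left quadrant, 26 of 33, lie below 0 on both slides, with Uqcr11 and Uqcrq farthest from 0, and median centring in place of loess turns the median of the 45 genes to 0.30. A dimmer probe stands for Uqcrh on both slides, for Atp5b on slide 1 and for Uqcrc1 on slide 2.

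Other genes of oxidative phosphorylation were read from lists beside these. Over all items 5.01% were called lower and 3.57% higher after loess. Of 31 tested subunits of complex I, which feeds electrons from NADH, 6 fell and 0 rose after loess, with a median of -0.24 that became 0.31 with median centring. The 6 were Ndufa1, Ndufa2, Ndufb4, Ndufb9, Ndufc1 and Ndufv3, with differences of -1.08 to -0.45. Of 31 tested assembly factors of complexes II to V, 3 fell and 1 rose. Cox17, the copper chaperone of complex IV, read 0.75, 0.88 and 1.05 in PB-NICD prostates, against 1.96, 1.63, 2.09 and 1.59 in control prostates (difference -0.92 ± 0.15, limma adjusted p = 0.00346). Cox16, also needed to build complex IV, fell by 0.80 and Uqcc2, an assembly factor of complex III, by 0.67 on the log2 scale, while Coa4, an assembly factor of complex IV, rose by 0.52.

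Of 5 tested genes for other routes of electron entry to ubiquinone 2 rose and 0 fell. Etfa, a subunit of the electron transfer flavoprotein of fatty acid oxidation, rose by 0.75 on the log2 scale, with values of 1.83 and 1.47 in PB-NICD prostates 1 and 3, against 0.93, 0.84, 0.71 and 1.09 in control prostates. Sqor, which oxidises sulfide at ubiquinone, read 2.03, 2.25 and 2.05 in PB-NICD prostates, against 1.39, 1.42, 1.49 and 1.63 in control prostates, and rose by 0.63 (limma adjusted p = 0.00614). Ucp2, an uncoupling protein family member, fell by 0.89, and Higd1a, a small protein that associates with complex IV, by 0.46. The next gene by p was Slc25a14 (0.30) among the 3 tested uncoupling proteins and Higd2a (-0.32) among the 3 tested supercomplex factors and the ATP synthase inhibitor. In protein import 1 of 24 tested genes fell (Timm10b, -0.40) and 0 rose, with Timm17b (-0.52) next by p.

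Among 10 tested genes of mitochondrial DNA and its transcription 0 fell and 0 rose, with Polg2 (0.27) and Polrmt (0.24) at the lowest p. Among 10 nuclear regulators of mitochondrial genes 0 fell and 0 rose, with Yy1 (0.24) and Ppargc1a (0.25) at the lowest p. Coenzyme Q synthesis (10 tested, with Coq10b at -0.32 and Coq9 at -0.43 of lowest p) and the ADP, phosphate and porin carriers (8 tested, with Vdac3 at -0.34 and Slc25a4 at -0.19) had 0 past the threshold in either direction. These counts are after loess. With median centring 0 genes of any of these lists were called lower, and those called higher were 3 of 10 for mitochondrial DNA, 1 of 10 regulators, 3 of 10 for coenzyme Q and 5 of 8 carriers, against 25.5% of all items. In the same setting 7 of 31 subunits of complex I, 4 of 31 assembly factors, 4 of 5 genes of other electron entry and 7 of 24 of protein import were called higher.

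Cell type markers were read from lists too, where 5.01% of all items were called lower and 3.57% higher after loess. All 10 luminal prostate markers were detected on every array, with 1 of 10 fallen (Tmprss2), and the mean log2 ratio of the 4 measured on all arrays was 4.17 to 4.25 on the PB-NICD arrays and 4.19 to 4.32 on the control arrays. Of 6 tested basal markers 4 fell (Krt5, Krt15, Lgals7 and Itga6), and the mean of the 5 measured on all arrays was 0.05 to 0.23 on the PB-NICD arrays, against 0.97 to 1.25 on the control arrays. Of 8 smooth muscle markers 1 fell (Actg2), and the mean of the 3 measured on all arrays was 1.18 to 1.59 on the PB-NICD arrays, against 1.47 to 1.99 on the control arrays. Of 5 brown fat markers Ucp1, Elovl3 and Zic1 stayed at background on all arrays. Of 2 tested endothelial markers 1 fell (Emcn), and of 3 urothelial markers 1 rose (Upk3a). The tested markers of striated muscle, brown fat, white fat, germ cells, fibroblasts, leukocytes and seminal vesicle had 0 past the threshold after loess. Below 0 after loess lay 5 of 10 luminal, 6 of 6 basal, 8 of 8 smooth muscle and 8 of 9 striated muscle markers, against 54.35% of all items. The medians of these lists were -0.01, -0.86, -0.42 and -0.48 after loess, in that order. With median centring they were 0.45, -0.58, 0.33 and -0.36, against 0.27 over all items. With median centring 3 of 9 striated muscle, 3 of 6 basal, 1 of 10 luminal and 1 of 2 endothelial markers were called lower, against 1.65% of all items. Called higher there were 4 of 10 luminal, 3 of 5 germ cell, 2 of 5 fibroblast, 2 of 6 leukocyte, 2 of 3 urothelial and 1 of 8 smooth muscle markers, against 25.5%. The 1 seminal vesicle marker measured on all arrays was highest on PB-NICD 1 and control 2, at 5.75 and 9.39, against -0.28 to 2.36 on the other arrays. The part of any of these cell types in the values of complexes II to V was not tested.

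**Figure D5:**
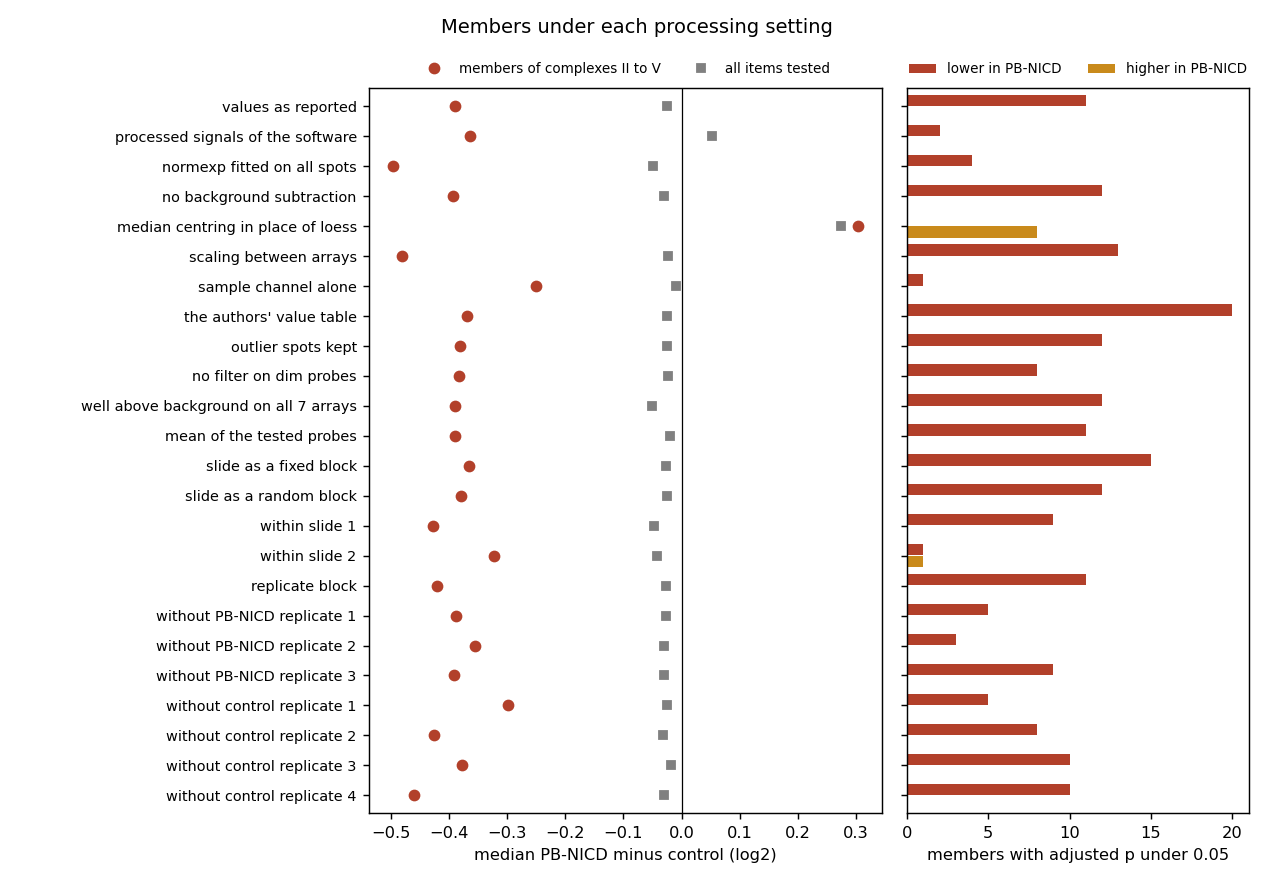
Left, the median difference (x axis, PB-NICD minus control, log2) of the tested genes of complexes II to V (circles) and of all items (squares) under each processing setting (y axis). Right, the number of these genes called lower or higher in PB-NICD at an adjusted p under 0.05. The circles lie between -0.50 and -0.25 except under median centring, where they stand at 0.30 beside 0.27 for all items and 8 of the 45 genes are called higher, against 25.5% of all items.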

How the data were processed

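The deposited scanner files of the 7 arrays hold, per the file headers, spot and local background intensity of 2 channels from Agilent Feature Extraction 10.7.3.1, other columns of 0 or 1 flags, and a log10 ratio of the processed signals. The authors also deposited a table of log2 values by a normalization not given in the sources used here, and its direction matched the arrays (r = 0.989 to 0.995). Its column medians were -0.02 to -0.01. In limma 3.58.1 under R 4.3.3, 14 spots with a local background over 2 times the array median in either channel were left out, the rest were corrected by normexp on median signals (offset 50) and loess (control spots at weight 0), outlier spots were dropped and spots of a probe averaged. Leaving out the 14 spots was chosen after the data were seen. On PB-NICD 1, where 9 of them lie, normexp fitted on all spots had set the median corrected sample signal at 349.5, against 92.7 without them. Tested probes had prostate signal flagged as well above background on 3 or more arrays and 2 values per group, and the brightest such probe stood for its gene. Where a spot was dropped as an outlier the fit used the remaining arrays.

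Of 41174 probes 24375 received a symbol from RefSeq accessions (GRCm38.p6 table), and 16939 items, 11824 of them named genes, were tested with lmFit and eBayes, two-sided, with group as the only term. The number of arrays, 3 against 4, limits the precision. The steps were tested on simulated data. The members and lists were chosen with earlier results of these data known. Named are all genes past the threshold, all of complex II, the 5 of lowest p in each of complexes III to V, Cycs, the isoform groups, and in each pathway list the genes past the threshold and the 2 of lowest p. Lists covered complex I, assembly factors, supercomplex factors, quinone entry, coenzyme Q, carriers, mitochondrial DNA, nuclear regulators, protein import, uncoupling proteins and cell type markers. Alternatives covered background, scaling, filters, probes, slide, replicate number and each sample left out.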

Additional observations from a re-analysis of the deposited data

Results flagged for a closer look

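Control 1 stood apart from the other controls for 2 genes of complex IV by Dixon's test at the 95% level, among 43 control groups of 4 tested, where chance alone marks about 1 group in 20. The 2 flags are close to the number that chance alone would mark. Their probes were dim, with median sample signals of 121.5 for Cox6a2 and 93.5 for Cox4i2. Cox6a2, the muscle form of subunit 6a, read 0.33 on control 1, against -1.03 to -0.86 on the other controls. Cox4i2 read 1.03 on control 1, against -0.40 to -0.18 on the other controls. Control 1 also had the highest mean of the striated muscle markers (3.61, against 2.02 to 2.42 on the other controls), and the part of muscle in both values was not tested.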

How the results depend on the processing

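The median difference of the genes of complexes II to V was below 0 in 22 of the 23 alternatives, and with median centring in place of loess it turned to 0.30. Apart from the processed signals and the authors' value table, the alternatives below 0 all kept the loess step. Their sign therefore cannot test that step. With median centring 0 genes fell, 8 rose, and these differences were above 0: Sdhc 0.0707, Sdhb 0.13, Sdhd 0.19, Sdha 0.60, Cyc1 0.54, Uqcrc2 0.475, Cycs 0.25, Cox5a 0.30, Cox8a 0.12, Cox6c 0.33, Cox6a1 0.32, Cox6b1 0.38, Cox4i1 0.42, Atp5j2 0.15, Atp5pb 0.20, Atp5o 0.28, Atp5mpl 0.21, Atp5g2 0.35 and Atp5g3 0.41. The cause was not tested. The number of genes that fell was 2 with the software's processed signals, 4 with normexp fitted on all spots (added after the data were seen), 1 with the sample channel alone, 20 with the authors' value table and 1 within slide 2, where 1 rose. In these settings 3.74%, 2.27%, 2.43%, 11.5% and 3.65% of all items were called lower, in the same order. Over all items, the counts of calls also moved by more than 1.5 times with median centring (280 lower and 4315 higher, against 848 and 605), the sample channel alone (412 lower and 470 higher), normexp on all spots (385 lower and 68 higher) the authors' value table (1943 lower and 1267 higher), slide 2 alone (447 lower and 302 higher) and slide 1 alone, where 1 PB-NICD array stands for the group (477 lower and 301 higher). Leaving out single samples gave 453 to 822 lower and 322 to 660 higher, with 453 and 322 without PB-NICD 2, 480 lower without PB-NICD 1 and 384 higher without PB-NICD 3. Leaving out each sample gave 3 to 10 genes fallen, 0 risen and a median of -0.46 to -0.30, with 5 fallen without PB-NICD 1, 3 without PB-NICD 2 and 5 without control 1. Genes near 0 changed sign: Sdha with processed signals (0.0256), the sample channel alone (0.0334), the mean of the tested probes (0.0187) and within slide 2 (0.0569); Cox6b2 with processed signals (-0.0525) and normexp on all spots (-0.16); Uqcr10 with normexp on all spots (-0.0113), scaling between arrays (-0.091) and within slide 1 (-0.0601). Cox4i2 did so with scaling between arrays (-0.0048) and the sample channel alone (-0.0379), Cox8b with the sample channel alone (-0.15) and Cox7a1 within slide 1 (-0.16). With single samples left out, the differences ran from -0.11 to 0.37 for Cox4i2, -0.0514 to 0.29 for Cox6b2, -0.0585 to 0.27 for Cox7a1, -0.0545 to 0.46 for Cox8b and -0.11 to 0.10 for Sdha. With the replicate number as a block (replicate block, control 4 without a partner) 11 genes fell with a median of -0.42, Cox7a1 stood at -0.0585 and Cox4i2 at -0.11. Samples with the same number did not all deviate together (r = 0.32, -0.24 and 0.08), so the block is given here only. All pairs of a PB-NICD and a control sample on the same slide had r of 0.08 to 0.36. All such pairs on different slides had r of -0.38 to -0.14, and the fits with slide as a block are given above. Over the named genes and alternatives, 526 values kept their direction and their side of the threshold, 81 kept their direction but no longer passed, 19 newly passed and 44 changed sign, 6 of which also no longer passed. The sample channel was dim, so genes near background have compressed ratios, and 1 slide held 3 arrays and the other 4.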
